A study of Mus musculus with 5 samples.

Results

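The 32 genes described here encode enzymes and regulators of sterol and fatty acid synthesis, and they are 32 of the 26189 genes counted in each of the deposited tables. They were taken from a list of symbols, which was chosen with earlier results of these data known. They fall into 7 genes of the mevalonate steps, 11 of the squalene and later sterol steps, 6 regulators and carriers, and 8 of the fatty acid steps. The study sorted live CD45-positive cells, CD45 being the surface marker of blood-derived cells, from digested aortic arches of female mice with diet-induced atherosclerosis. Wild-type C57BL/6J mice and Saa3-/- mice (C57BL/6N-Saa3tm1.1(KOMP)Vlcg/MbpMmucd, lacking serum amyloid A3), called littermates in the design text, were given as 12 weeks old. All received the same viral vector, which is not described further here, and all were fed Western diet for 18 weeks. No group without vector and diet was analysed here. The cells of each genotype carried 1 sample tag and were captured together on a BD Rhapsody cartridge, so each genotype is 1 pool of an unstated number of mice.

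The pathway has a well-known wiring. The mevalonate steps build isoprenoid units from acetyl-CoA, the later steps turn squalene into cholesterol, and the fatty acid steps make, lengthen and desaturate long-chain fatty acids. The transcription factors SREBP1 and SREBP2, from Srebf1 and Srebf2, switch on these genes when the endoplasmic reticulum is short of sterol, after SCAP has carried them to the Golgi. The INSIG proteins hold SCAP back when sterol is plentiful. In atheroma, macrophages that take up lipoprotein cholesterol become foam cells, in which uptake, synthesis and efflux of sterol are coupled.

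After a limit of 25% of molecules from mitochondrial genes, 833 cells of the pool labelled wild-type and 823 of the pool labelled Saa3-/- remained, with 7289593 and 5231922 molecules. The mean per cell was 8751 and 6357 molecules, so each cell of the second pool carried fewer molecules on average. Saa3, the targeted gene, went against its label in the sum over all cells and followed it in macrophages. The pool labelled Saa3-/- held 1268 Saa3 molecules, 242 per 1000000 molecules (CPM), against 1079, or 148 CPM, in the pool labelled wild-type. In the pool labelled Saa3-/-, 2 cells held 88.6% of them, and its other cells had 27.5 CPM, whereas without its own 2 highest cells the pool labelled wild-type had 95.6 CPM. At least 1 Saa3 molecule was present in 20.4% and 13.9% of the cells (pool labelled wild-type first). In macrophages it stood at 349 CPM in the pool labelled wild-type and 28.9 CPM in the pool labelled Saa3-/-, and in the fibroblast gate at 27.3 and 1568 CPM. The pools are therefore named by their labels throughout. No cell barcode index was shared by both pools (0 shared).

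Cells were assigned to a type by fixed marker genes, none of which is a member, and a type name below means this gate. The macrophage gate held 206 and 143 cells (pool labelled wild-type first, here and in every pair below), the T cell gate 130 and 147, the B cell gate 54 and 102, the fibroblast gate 82 and 66, and the smooth muscle gate 104 and 66. The small gates were thymocyte with 20 and 64 cells, monocyte with 34 and 26, and dendritic cell with 25 and 21. The leading genes of each gate included some of its own markers beside genes that are not its markers. A gene outside the marker lists came first in macrophages (Lyz1) and in the fibroblast gate (Ibsp). Ibsp, Chad, Prg4 and Col10a1, genes of bone, cartilage and joint lining, were among the leading genes of the fibroblast gate. Top2a and Pclaf, genes of dividing cells, were among those of the thymocyte gate. Fibroblasts and smooth muscle cells are not CD45-positive cell types, and how they passed the sort is not given. The B cell gate of the pool labelled wild-type also carried the 8 macrophage markers at 4363 CPM, against 997 CPM in the other pool, while the macrophage gate had 15142 and 14413 CPM.

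To show what regulatory letters these genes share, the 250 bases before each RefSeq start (GRCm38.p6) were searched on both strands for 4 short motifs. The motifs were TCACNCCAC, a form of the sterol regulatory element that SREBPs bind, CCAAT, the box of NF-Y, GGGCGG, the box of Sp1, and CACGTG, the E-box; none contains another. RefSeq gave a window for 25 members; Fdps, Fdft1, Sqle, Stard4, Scd1, Scd2 and Fads1 had none. CCAAT was found for 19 of the 25 members (76.0%) and for 37.5% of the 27025 genes in the table. GGGCGG was found for 21 (84.0%) and for 35.4% of all genes, CACGTG for 5 (20.0%) and 6.86%, and TCACNCCAC for 1 (4.00%) and 1.22%. Genes with several starts counted once. The windows printed are those of Hmgcs1, the 1 member with a match to TCACNCCAC, at 137 bases before the start; of Insig1 and Insig2, whose products have the same job and whose levels ran opposite ways in thymocytes and smooth muscle cells; and of Fasn. Only bases outside annotated exons are printed, 5′ to 3′ on the gene's strand, with matches of any of the 4 motifs in capitals, reverse complements included.
Hmgcs1 (chr13:119690101-119690350, plus strand): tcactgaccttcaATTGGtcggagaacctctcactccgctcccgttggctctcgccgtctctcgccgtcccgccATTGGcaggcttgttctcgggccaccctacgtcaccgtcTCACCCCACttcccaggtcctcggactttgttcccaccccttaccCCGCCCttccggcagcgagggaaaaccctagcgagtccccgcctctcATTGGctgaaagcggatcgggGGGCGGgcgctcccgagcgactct
Insig1 (chr5:28071162-28071362, plus strand): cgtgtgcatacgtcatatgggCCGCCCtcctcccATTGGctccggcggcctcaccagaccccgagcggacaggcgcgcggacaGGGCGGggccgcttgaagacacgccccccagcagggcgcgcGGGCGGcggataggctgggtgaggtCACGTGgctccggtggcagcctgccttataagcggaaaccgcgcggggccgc
Insig2 (chr1:121332590-121332839, minus strand): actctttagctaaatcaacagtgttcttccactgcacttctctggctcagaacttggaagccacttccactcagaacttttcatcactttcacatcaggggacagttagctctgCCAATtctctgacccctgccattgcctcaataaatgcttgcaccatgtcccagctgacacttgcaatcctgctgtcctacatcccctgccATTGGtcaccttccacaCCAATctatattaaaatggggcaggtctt
Fasn (chr11:120824548-120824797, minus strand): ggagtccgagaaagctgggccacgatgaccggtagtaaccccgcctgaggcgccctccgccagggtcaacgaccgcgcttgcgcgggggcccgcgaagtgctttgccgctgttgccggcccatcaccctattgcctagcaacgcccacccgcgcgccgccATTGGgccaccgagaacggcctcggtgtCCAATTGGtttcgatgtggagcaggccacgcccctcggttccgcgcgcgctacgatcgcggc
Insig1 held GGGCGG or its complement 3 times, CCAAT 1 time and CACGTG 1 time in the printed letters, and the printed Insig2 window held CCAAT 3 times. It belongs to 1 of 3 Insig2 starts, and the windows of the other 2 starts each held GGGCGG 1 time and no CCAAT. Fasn also held CCAAT 3 times. Such matches are letters and not shown binding sites.

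The first question was whether the members differ between cell types. Molecules were summed over the cells of each type in each pool, and edgeR's quasi-likelihood test compared types with the pool as a block. The 16 sums rest on 2 pools. The block takes out the shift between the pools, so p-values measure only how differences between types vary between these 2 pools. Of the 32 members, 23 had enough molecules to be tested, and 13 differed between types at an adjusted p below 0.05 (Benjamini-Hochberg over all genes). Of all 9819 genes tested, 74.6% did, so differing between cell types was no more frequent among the members than among genes at large. The 9 members below the filter were Mvk, Mvd, Fdps, Fdft1, Lss, Tm7sf2, Nsdhl, Hsd17b7 and Fads2, with 12 to 130 molecules in all kept cells. A member that is high in 1 type passes the filter more easily, so the count of 13 is a description. The members that differed were Idi1, Sqle, Cyp51, Insig1, Insig2, Srebf2, Stard4, Acly, Fasn, Elovl6, Scd1, Scd2 and Fads1. Cyp51 (adjusted p = 0.0485) and Fasn (adjusted p = 0.0491) stood at the threshold and lost the call in 10 of 12 and 9 of 11 other settings.

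**Figure D1:**
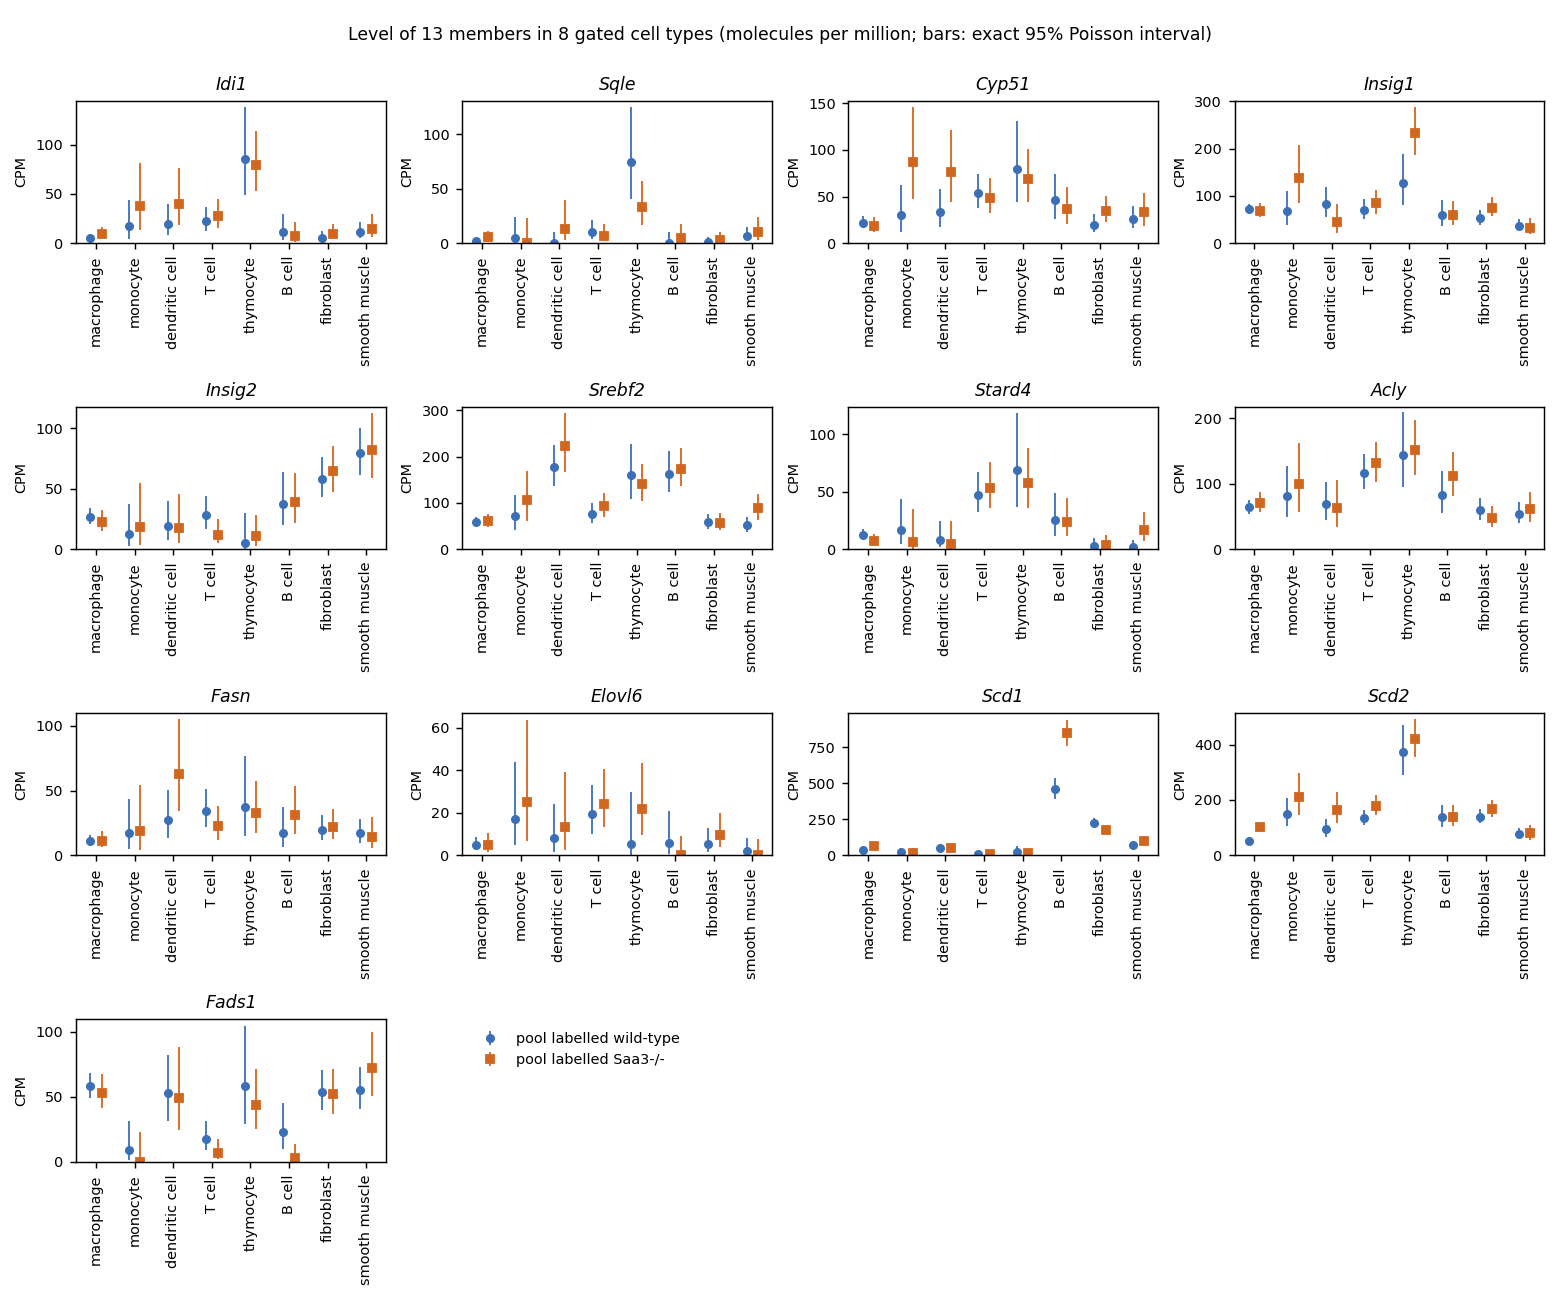
Level of the 13 members that differed between types, in CPM (vertical axis, a scale per gene), by gated cell type (horizontal axis); circles are the pool labelled wild-type, squares the pool labelled Saa3-/-, and bars the exact 95% Poisson interval, which covers counting error only. Scd1 peaked in B cells (457 and 848 CPM) and Scd2 in thymocytes (372 and 420 CPM).

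Summed over the 18 genes of the mevalonate and later sterol steps, thymocytes had the highest level, 473 and 464 CPM. T cells had 357 and 353 CPM, next in the pool labelled wild-type but below dendritic cells in the other. Macrophages stood at 213 and 213 CPM, with B cells at 277 and 215 and fibroblasts at 194 and 264. Dendritic cells had 221 and 362 CPM, monocytes 214 and 342, and smooth muscle cells 274 and 309. Both lymphoid gates of the T lineage thus lay above macrophages in both pools, while the pools of the 2 smallest gates, monocytes and dendritic cells, lay far apart. The 8 genes of the fatty acid steps had another order, with B cells highest at 740 and 1176 CPM, then thymocytes at 691 and 760, and macrophages at 247 and 329.

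Of the mevalonate steps, Idi1 rose in thymocytes, T cells and dendritic cells. Idi1 encodes the isomerase that makes dimethylallyl pyrophosphate, the starter of isoprenoid chains. It had 5.30 and 9.63 CPM in macrophages, 85.0 and 79.6 in thymocytes, 22.2 and 27.6 in T cells, 19.4 and 40.2 in dendritic cells, 17.1 and 37.3 in monocytes, 11.5 and 14.4 in smooth muscle cells, 11.4 and 7.25 in B cells, and 5.47 and 9.59 in fibroblasts. Thymocytes stood clear of every other type in both pools, while macrophages, fibroblasts and B cells overlapped at the bottom. Against macrophages the log2 fold change was 3.11 (SE 0.45, adjusted p = 5.96e-06) in thymocytes, 1.92 (SE 0.55, adjusted p = 0.0216) in dendritic cells and 1.54 (SE 0.47, adjusted p = 0.011) in T cells. Of the stretches of 50 bases in the Idi1 transcripts, 17.7% also occur in Gm13502, so part of its counts could belong to that copy. Hmgcs1, which makes HMG-CoA and carries the printed sterol regulatory element, was higher in smooth muscle cells (47.0 and 35.0 CPM) than in macrophages (20.0 and 24.9 CPM). Its log2 fold change there was 1.08 (SE 0.40, adjusted p = 0.03), lost in 5 of 11 other settings, and its test over all types gave an adjusted p of 0.0664. Thymocytes (37.2 and 76.8 CPM) and B cells (51.5 and 33.8 CPM) also lay above macrophages in both pools. Their log2 fold changes, 1.09 (SE 0.44, adjusted p = 0.0534) and 0.82 (SE 0.44, adjusted p = 0.189), fell short of the threshold. Acat2, the cytosolic thiolase, and Pmvk, phosphomevalonate kinase, passed no test. Acat2 shares 39.1% of its stretches with Acat3.

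Of the squalene and later sterol steps, Sqle and Cyp51 rose in thymocytes. Sqle encodes squalene epoxidase, which adds the oxygen that starts ring closure. It had 74.4 and 32.9 CPM in thymocytes (14 and 12 molecules), 10.4 and 6.89 in T cells, 6.88 and 10.3 in smooth muscle cells, 2.04 and 5.62 in macrophages, 1.09 and 2.74 in fibroblasts, 0 and 4.83 in B cells, 0 and 13.4 in dendritic cells, and 4.29 and 0 in monocytes. Outside thymocytes no sum held more than 7 Sqle molecules. The thymocyte log2 fold change against macrophages was 3.45 (SE 0.76, adjusted p = 0.000745).

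Cyp51, the lanosterol demethylase, had 79.7 and 68.6 CPM in thymocytes, 53.3 and 48.2 in T cells, 45.7 and 36.2 in B cells, 30.0 and 87.1 in monocytes, 33.2 and 76.0 in dendritic cells, 26.4 and 32.9 in smooth muscle cells, 22.0 and 18.5 in macrophages, and 19.7 and 34.2 in fibroblasts. Thymocytes and T cells lay above macrophages in both pools, with log2 fold changes of 1.42 (SE 0.41, adjusted p = 0.0083) and 1.05 (SE 0.37, adjusted p = 0.0281). A single cell held 13 of the 25 Cyp51 molecules of fibroblasts in the pool labelled Saa3-/-. Sc5d, the lathosterol desaturase, rose in T cells, to 50.3 and 48.2 CPM from 15.5 and 13.7 in macrophages (log2 1.47, SE 0.40, adjusted p = 0.00499). Its values in dendritic cells, monocytes, B cells and fibroblasts also lay above macrophages in both pools, but short of the threshold. Ebp, the sterol isomerase, went the other way. It had 53.0 and 57.8 CPM in macrophages, 37.2 and 12.1 in B cells (log2 -1.32, SE 0.40, adjusted p = 0.0162) and 39.9 and 31.0 in T cells (log2 -0.87, SE 0.33, adjusted p = 0.0404). Both Sc5d and Ebp missed the threshold over all types, at adjusted p = 0.0898 and 0.0637. Msmo1 and Dhcr7 passed no test.

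Among the regulators, Srebf2 was highest in dendritic cells, B cells and thymocytes. Its product SREBP2 drives mainly the sterol genes. The levels were 177 and 224 CPM in dendritic cells, 163 and 174 in B cells, 159 and 140 in thymocytes, 75.5 and 93.0 in T cells, 72.9 and 106 in monocytes, 59.6 and 60.2 in macrophages, 59.1 and 57.5 in fibroblasts, and 51.6 and 88.5 in smooth muscle cells. The 3 high types lay above all 5 others in both pools. Against macrophages, Srebf2 was higher by 1.68 on the log2 scale in dendritic cells (SE 0.26, adjusted p = 5.78e-05), 1.37 in B cells (SE 0.25, adjusted p = 0.00022) and 0.93 in thymocytes (SE 0.27, adjusted p = 0.00797). Srebf1, the gene of the factor better known for fatty acid genes, ran from 21.4 to 57.6 CPM over all sums and passed no test. Scap, the escort of both factors, also passed none.

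Insig1 and Insig2 ran opposite ways in thymocytes and smooth muscle cells. Insig1, itself a target of SREBPs, had 127 and 233 CPM in thymocytes, 68.6 and 137 in monocytes, 69.5 and 84.4 in T cells, 72.2 and 69.1 in macrophages, 52.5 and 75.3 in fibroblasts, 82.9 and 44.7 in dendritic cells, 60.0 and 60.4 in B cells, and 36.7 and 32.9 in smooth muscle cells. The order among the types between thymocytes and smooth muscle cells was not kept from pool to pool. Against macrophages, Insig1 was higher in thymocytes (log2 1.01, SE 0.30, adjusted p = 0.00916) and lower in smooth muscle cells (log2 -0.84, SE 0.33, adjusted p = 0.0419). Insig2 had 79.1 and 82.3 CPM in smooth muscle cells, 58.0 and 64.4 in fibroblasts, 37.2 and 38.6 in B cells, 26.5 and 22.5 in macrophages, 28.1 and 12.1 in T cells, 19.4 and 17.9 in dendritic cells, 12.9 and 18.7 in monocytes, and 5.31 and 11.0 in thymocytes. Smooth muscle cells, fibroblasts and B cells kept this order in both pools, and thymocytes were lowest in both. The log2 fold change of Insig2 against macrophages was 1.85 in smooth muscle cells (SE 0.31, adjusted p = 2.47e-05), 1.45 in fibroblasts (SE 0.31, adjusted p = 0.000518) and -1.77 in thymocytes (SE 0.58, adjusted p = 0.0177). The fall in thymocytes rests on 1 and 4 molecules and was lost in 4 of 8 other settings.

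Stard4, whose product carries cholesterol between membranes, rose in thymocytes and T cells. It had 69.1 and 57.6 CPM in thymocytes, 47.3 and 53.4 in T cells, 25.7 and 24.2 in B cells, 17.1 and 6.22 in monocytes, 12.6 and 7.23 in macrophages, 8.29 and 4.47 in dendritic cells, 3.28 and 4.11 in fibroblasts, and 2.29 and 16.5 in smooth muscle cells. The 3 lymphoid gates came first, in this order, in both pools. The log2 fold change was 2.21 in thymocytes (SE 0.51, adjusted p = 0.0011) and 2.02 in T cells (SE 0.45, adjusted p = 0.000902).

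Of the fatty acid steps, the stearoyl-CoA desaturase genes Scd1 and Scd2 gave the most calls against macrophages, 5 each. They lie near each other on chromosome 19 and encode enzymes that place the double bond of oleate. Scd1 had 457 and 848 CPM in B cells, 228 and 177 in fibroblasts, 72.2 and 96.7 in smooth muscle cells, 38.3 and 65.0 in macrophages, 52.5 and 49.2 in dendritic cells, 26.6 and 19.2 in thymocytes, 21.4 and 18.7 in monocytes, and 11.8 and 6.89 in T cells. B cells and fibroblasts stood above all other types in both pools, and T cells were lowest in both. Against macrophages, Scd1 was higher by 3.57 on the log2 scale in B cells (SE 0.28, adjusted p = 1.82e-09), by 2.18 in fibroblasts (SE 0.28, adjusted p = 4.62e-07) and by 0.89 in smooth muscle cells (SE 0.30, adjusted p = 0.0181). It was lower in T cells (log2 -2.59, SE 0.43, adjusted p = 3.44e-05) and thymocytes (log2 -1.58, SE 0.46, adjusted p = 0.00823). The B cell level was spread over cells, the 5 highest holding 29.4% and 17.7% of the molecules. Of 7 adipocyte markers, Adipoq, Car3, Cidec, Lep and Retn were at 0 in both pools of B cells and of fibroblasts, and the summed list was at most 5.72 CPM there. Cells that scored highest on this list were gated apart, and the part of adipocyte RNA in the Scd1 levels was not tested.

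Scd2 had its peak elsewhere. It had 372 and 420 CPM in thymocytes, 150 and 212 in monocytes, 135 and 179 in T cells, 140 and 167 in fibroblasts, 137 and 140 in B cells, 94.0 and 165 in dendritic cells, 79.1 and 80.2 in smooth muscle cells, and 51.8 and 102 in macrophages. Thymocytes stood clear of every other type, and the 4 types after them overlapped. Against macrophages, Scd2 rose by 2.07 on the log2 scale in thymocytes (SE 0.25, adjusted p = 4.6e-07), 1.20 in fibroblasts (SE 0.24, adjusted p = 0.000268), 1.15 in monocytes (SE 0.28, adjusted p = 0.0158), 0.85 in T cells (SE 0.25, adjusted p = 0.00875) and 0.81 in B cells (SE 0.27, adjusted p = 0.0267). The call was lost in 5 of 12 other settings in B cells and in 4 of 11 in monocytes. T cells and thymocytes therefore had more Scd2 and less Scd1 than macrophages. Of the molecules of both genes, Scd1 made up 76.9% and 85.8% in B cells, 61.9% and 51.4% in fibroblasts, 42.5% and 38.9% in macrophages, and 8.08% and 3.70% in T cells. The exact binomial 95% intervals, which cover counting error only, were 70.6 to 82.5% and 82.1 to 89.0% in B cells against 3.55 to 15.3% and 1.02 to 9.21% in T cells. Scd1 shares 4.56% of its 50-base stretches with other genes and Scd2 3.97%.

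**Figure D2:**
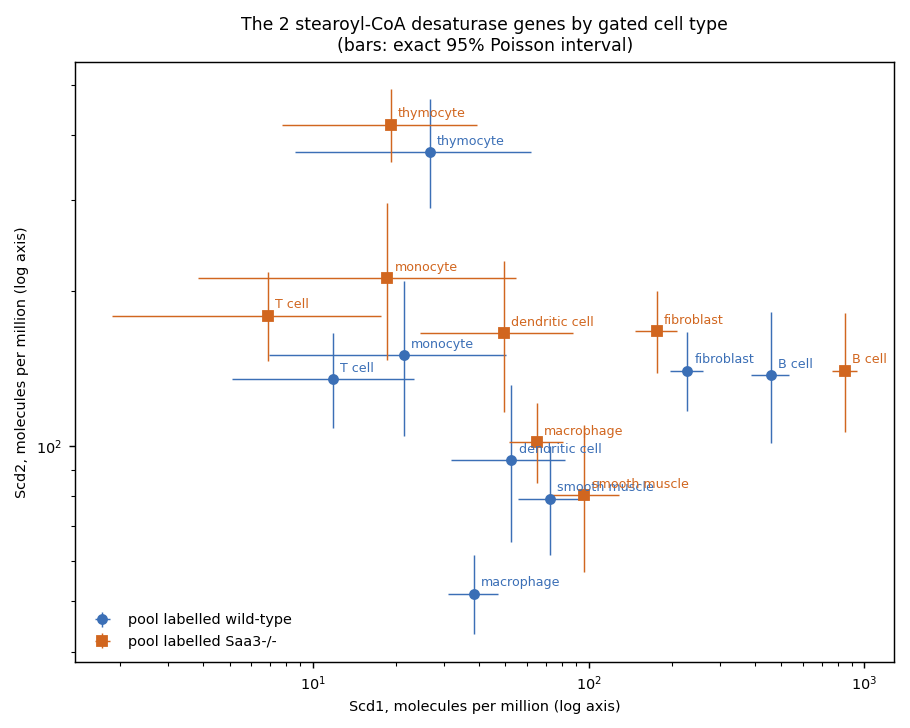
Scd1 (horizontal) against Scd2 (vertical), both in CPM on log axes, for each gated type in the pool labelled wild-type (circles) and the pool labelled Saa3-/- (squares), with exact 95% Poisson intervals as bars. B cells lie far right (457 and 848 CPM of Scd1), thymocytes at the top left (372 and 420 CPM of Scd2).

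Fads1, the delta-5 desaturase that makes arachidonate, fell in 3 blood-cell types. It had 57.9 and 53.0 CPM in macrophages, 55.0 and 72.0 in smooth muscle cells, 53.6 and 52.1 in fibroblasts, 58.4 and 43.9 in thymocytes, 52.5 and 49.2 in dendritic cells, 22.9 and 2.42 in B cells, 17.8 and 6.89 in T cells, and 8.57 and 0 in monocytes. The first 5 types lay together, and B cells, T cells and monocytes lay below them in both pools. The log2 fold change against macrophages was -2.36 in T cells (SE 0.44, adjusted p = 0.000134), -2.31 in B cells (SE 0.51, adjusted p = 0.00158) and -3.56 in monocytes (SE 0.78, adjusted p = 0.00533). The monocyte value rests on 2 and 0 molecules, with upper limits of 31.0 and 23.0 CPM, and its size depends on the fit.

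The enzymes that build the chain were less spread. Acly, which makes cytosolic acetyl-CoA, had 143 and 151 CPM in thymocytes, 117 and 131 in T cells, 82.9 and 111 in B cells, 81.5 and 99.6 in monocytes, 64.0 and 70.7 in macrophages, 69.1 and 62.6 in dendritic cells, 53.9 and 61.7 in smooth muscle cells, and 60.2 and 47.9 in fibroblasts. Thymocytes and T cells came first in both pools, at log2 0.78 (SE 0.26, adjusted p = 0.0207) and 0.65 (SE 0.24, adjusted p = 0.0336) against macrophages, the T cell call being lost in 6 of 12 other settings and the thymocyte call in 2 of 8. Fasn, the fatty acid synthase, had 27.6 and 62.6 CPM in dendritic cells, 37.2 and 32.9 in thymocytes, 34.0 and 22.4 in T cells, 17.2 and 31.4 in B cells, 19.7 and 21.9 in fibroblasts, 17.1 and 18.7 in monocytes, 17.2 and 14.4 in smooth muscle cells, and 11.0 and 11.2 in macrophages. Macrophages were lowest in both pools. Fasn was higher in dendritic cells by 1.87 on the log2 scale (SE 0.48, adjusted p = 0.0102). It was also higher in T cells (adjusted p = 0.0438), a call lost in 9 of 11 other settings.

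Elovl6, which lengthens palmitate, had 19.2 and 24.1 CPM in T cells, 17.1 and 24.9 in monocytes, 5.31 and 21.9 in thymocytes, 8.29 and 13.4 in dendritic cells, 5.47 and 9.59 in fibroblasts, 4.89 and 4.82 in macrophages, 5.72 and 0 in B cells, and 2.29 and 0 in smooth muscle cells. It passed against macrophages in T cells only, at log2 1.84 (SE 0.62, adjusted p = 0.0216). Acaca, the acetyl-CoA carboxylase, rose in thymocytes to 47.8 and 71.3 CPM from 18.8 and 22.5 in macrophages (log2 1.22, SE 0.44, adjusted p = 0.0311). It missed the threshold over all types at adjusted p = 0.286, and shares 30.4% of its stretches with other genes.

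Set against macrophages, the reference of a foam cell study, the members gave 39 calls, 30 higher and 9 lower. Of these, 19 held in every other setting in which they were tested and 20 were lost in at least 1. Losses not given above were, in T cells, Cyp51 (3 of 12 settings), Ebp (3 of 11), Elovl6 (3 of 11) and Idi1 (2 of 11). In thymocytes they were Acaca (3 of 7), Srebf2 (2 of 8), Cyp51 (1 of 8) and Scd1 (1 of 8). In dendritic cells Idi1 (3 of 9) and Fasn (2 of 9) lost theirs. Scd1 (3 of 12) and Insig1 (2 of 12) did in smooth muscle cells, and Insig2 (1 of 12) in fibroblasts. T cells and thymocytes had 11 members each past the threshold of the 23 tested, where 38.3% and 37.9% of all genes passed. In T cells 8 were higher (19.2% of all genes) and 3 lower (19.1%), in thymocytes 9 were higher (18.0%) and 2 lower (19.9%). The median log2 fold change of the tested members was 0.59 in T cells and 0.78 in thymocytes, beside 0.06 and 0.002 over all genes. In B cells 3 members were higher (11.6% of all genes) and 2 lower (13.4%). The counts were 4 in smooth muscle cells (41.9% of all genes), 3 in fibroblasts (37.9%), 3 in dendritic cells (10.9%) and 2 in monocytes (5.48%). In T cells and thymocytes the shares of higher calls lay above the background, and the shares of lower calls lay below it. In dendritic cells and monocytes, which rest on 3 and 2 calls, and for higher calls in B cells, the shares lay only slightly above it. For lower calls in B cells, and in smooth muscle cells and fibroblasts, they lay below it. None of the differences in share was tested. Without TMM scaling the median of all genes moved by 0.23 in T cells, 0.35 in thymocytes, 0.13 in monocytes, 0.10 in B cells, -0.15 in fibroblasts and -0.16 in smooth muscle cells, and no member call changed direction.

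**Figure D3:**
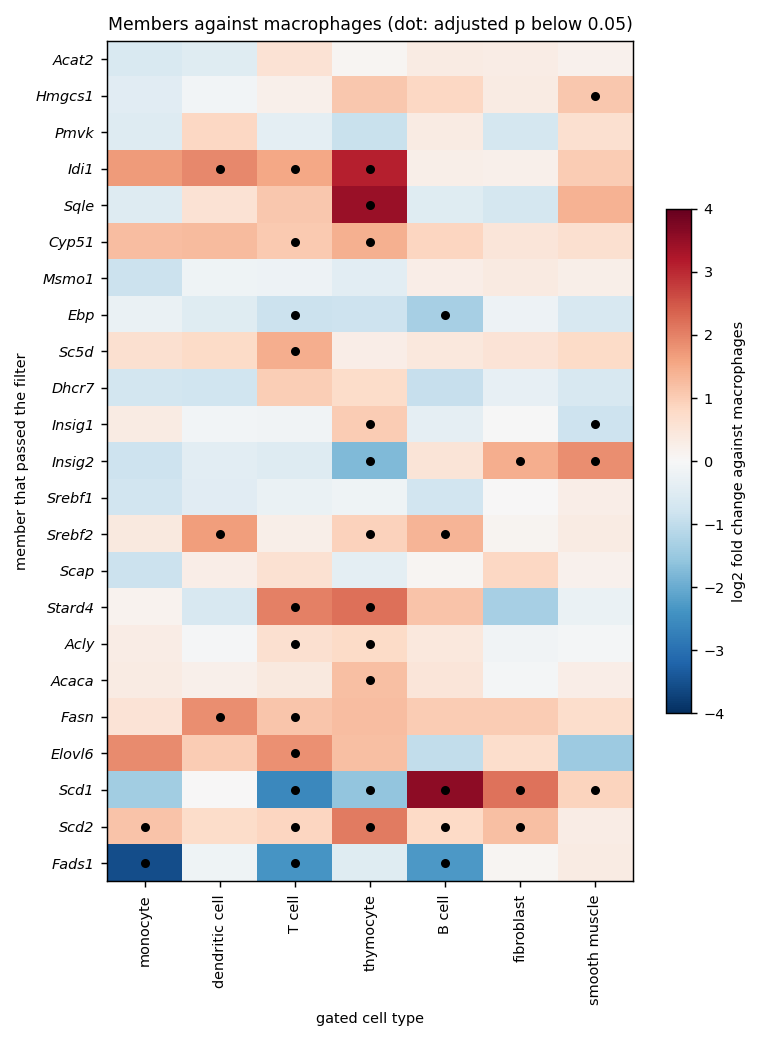
Log2 fold change against macrophages (colour, red higher and blue lower) of the 23 tested members (rows) in the 7 other types (columns); a dot marks an adjusted p below 0.05. Dots are densest in T cells and thymocytes (11 each), and Scd1 turns from red in B cells (3.57) to blue in T cells (-2.59).

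Cell division moved with part of the thymocyte values. The 6 cell cycle markers summed to 5253 and 4148 CPM in thymocytes, against 365 and 218 in macrophages, 837 and 360 in T cells and 658 and 555 in dendritic cells. At least 2 of them were found in 75.0% and 43.8% of thymocytes, 29.6% and 14.0% of macrophages, and 7.69% and 8.84% of T cells. By this measure T cells lay below macrophages in both pools, the reverse of the summed levels. Without such cells, thymocytes are too few in the pool labelled wild-type to be summed, as are dendritic cells. The part of cycling cells in the thymocyte and dendritic cell values was not tested. T cells without such cells still gave 8 calls. Depth moved with the calls as well: with every cell thinned to 2000 molecules, T cells gave 4 calls and thymocytes 2, and 6 members differed over all types. Only 1 other member was still tested over all types, and it lost its call. Of the 40 calls that include the split of macrophages described below, 15 were kept and 8 were lost. The others had too few molecules left to be tested. The median depth was 9626 and 6780 molecules per cell in macrophages, 4324 and 3879 in T cells and 7235 and 4538 in thymocytes.

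Within macrophages, the gate was split by fixed markers, none a member, into 92 and 75 lipid-laden cells and 114 and 68 others. The split set each cell's score on lipid-laden markers (Trem2, Gpnmb, Spp1 and others) against its score on resident macrophage markers (Lyve1, Folr2 and others). The resident markers summed to 374 and 232 CPM in lipid-laden cells and to 4176 and 4491 CPM in the others. Lipid-laden cells were thus compared with cells much richer in resident markers. Scd2 alone passed, as 1 of 23 members (4.35%) where 1.93% of 10124 genes passed. It had 77.6 and 137 CPM in lipid-laden macrophages and 27.1 and 41.5 in the others, with no overlap between the groups (log2 1.61, SE 0.28, adjusted p = 0.000873). The call was kept in all 12 other settings, with adjusted p from 1.86e-05 to 0.0162. Scd1 had 45.0 and 78.7 CPM against 31.9 and 41.5, a difference that missed the threshold (log2 0.69, SE 0.33, adjusted p = 0.458). Insig1 had 55.9 and 53.3 CPM in lipid-laden cells against 87.8 and 96.1, lower in both pools but short of the threshold (log2 -0.78, SE 0.29, adjusted p = 0.263). The sum over all 18 sterol enzymes was 237 and 212 CPM in lipid-laden cells and 190 and 214 in the others, with no common direction in the pools.

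Other genes of lipid synthesis, from a list that leaves the members out, were measured for context. Of 18 listed, 14 were in the tables with enough molecules to be tested and 11 differed between types, beside 74.6% of all genes. In T cells 5 of the 14 were higher and 3 lower than in macrophages (19.2% and 19.1% of all genes), and in thymocytes 3 and 3 (18.0% and 19.9%). Liver X receptors are activated by oxysterols and switch on cholesterol efflux genes. Of 7 genes of this pathway 6 were tested and 4 differed between types, all 4 of them lower than in macrophages in T cells (19.1% of all genes) and thymocytes (19.9%). No gene of the list was called higher than in macrophages in any of the 7 types. Within macrophages, Abcg1 was called higher in lipid-laden cells, as 1 of 7 tested where 1.93% of all genes were called in either direction. The 8 dissociation genes, which rise during tissue digestion, all differed between types, again beside 74.6% of all genes, and summed to 3427 and 3661 CPM in macrophages, 3018 and 2664 in T cells, 1907 and 1986 in thymocytes and 5914 and 6251 in fibroblasts. Their part in the members' values was not tested.

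The second question was whether the members differ between the pool labelled Saa3-/- and the pool labelled wild-type within a type. With 1 pool per label there is no test and no replicate check. A member counted as past the fold where the pools differed by 1 or more on the log2 scale, among genes with at least 50 molecules in the 5 types with at least 50 cells per pool. No member was past the fold among 17 in macrophages, 7 in T cells, 4 in B cells, 10 in fibroblasts and 8 in smooth muscle cells (0 in each). Of all genes with enough molecules, 2.10%, 2.71%, 8.08%, 4.60% and 2.07% were. The median log2 ratio (pool labelled Saa3-/- over wild-type) of the members was 0.02 in macrophages (-0.04 with TMM scaling), 0.17 in T cells, 0.25 in B cells, -0.04 in fibroblasts and 0.14 in smooth muscle cells, beside 0.03, 0.01, 0.07, -0.04 and 0.02 over all genes.

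The desaturases gave the 3 ratios whose Poisson intervals did not overlap between the pools, and they are named here after their values were seen. Scd2 in macrophages had 127 molecules in each pool, 51.8 CPM (43.2 to 61.6) in the pool labelled wild-type and 102 CPM (85.0 to 121) in the pool labelled Saa3-/-. The log2 ratio was 0.98, and 0.79 without the highest cell. Here and below, that is the single cell of both pools with the most molecules of the gene, taken out of its own pool only. The 5 highest cells held 24.4% and 43.3% of these molecules. Within lipid-laden macrophages the ratio was 0.82 and within the others 0.63. Scd1 in macrophages had 94 and 81 molecules, 38.3 CPM (31.0 to 46.9) and 65.0 CPM (51.6 to 80.8). Its log2 ratio was 0.76, and 0.55 without the highest cell. Scd1 in B cells had 160 and 351 molecules, 457 CPM (389 to 534) and 848 CPM (761 to 941). Its log2 ratio was 0.89, unchanged at 0.89 without the highest cell. In fibroblasts, the other type with much Scd1, the ratio was -0.36, with 228 CPM (198 to 261) against 177 CPM (148 to 210).

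**Figure D4:**
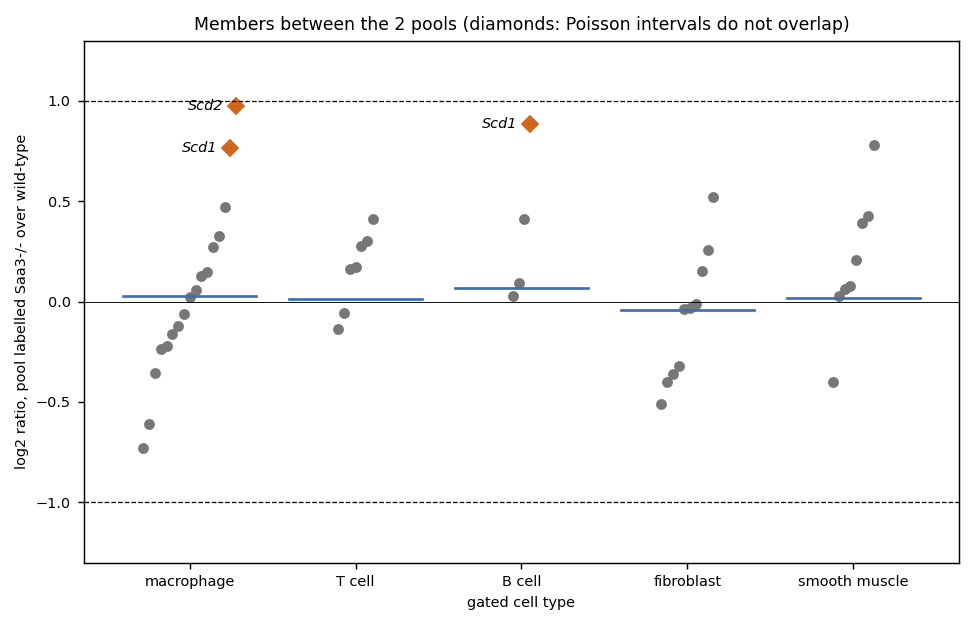
Log2 ratio of each member with at least 50 molecules (points), pool labelled Saa3-/- over pool labelled wild-type, in the 5 types with at least 50 cells per pool; blue bars are the median of all genes and dashed lines the limit of 1. No member passes the limit, and the diamonds, Scd2 (0.98) and Scd1 (0.76) in macrophages and Scd1 (0.89) in B cells, are the members whose Poisson intervals do not overlap.

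The pools of these types differed in more than their label. Macrophages of the pool labelled wild-type had at least 2 cell cycle markers in 29.6% of cells against 14.0%, and a median of 9626 against 6780 molecules per cell. Their lipid-laden markers summed to 3175 against 7443 CPM. Lipid-laden cells, in which Scd2 was higher, held 1199118 of 2451655 macrophage molecules against 787792 of 1245421. The B cell gate of the pool labelled wild-type carried the macrophage markers named above, at 4363 against 997 CPM, and cell cycle markers at 469 against 118 CPM. The part of these differences in the desaturase ratios was not tested, and the label, the sample tag and the mice of a pool cannot be told apart. Of the 17 members with enough molecules in macrophages, 9 had a ratio above 0 and 8 below, from -0.73 for Msmo1 to 0.98 for Scd2. Srebf2 itself had 59.6 and 60.2 CPM (log2 ratio 0.02) and Insig1 72.2 and 69.1 CPM (-0.06). Srebf1 had 38.7 and 40.1 CPM (0.06, and -0.09 without the highest cell).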

How the data were processed

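Single cells of 1 sorted aortic arch sample were measured; the 4 cultured macrophage samples were not analysed here. The authors deposited molecule counts (each molecule read by its identifier once) for every gene in every cell, in 1 table per sample tag, made with the BD Rhapsody pipeline version 1.11.1 on GRCm38 with GENCODE release 19, counting intronic reads and with refined calling of cells, per the file headers. Strand use and the handling of reads shared by genes are not given in the sources used here. Only the tables' names tie a tag to a genotype. Of 2401 tag calls, 11 were multiplets and 647 undetermined, and neither is in the tables; no doublet caller was run. R 4.3.1 and Seurat 4.3.0 are named in the submitters' processing notes, with no role given.

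From the 1743 deposited cells, 87 were removed for more than 25% mitochondrial molecules; a limit of 200 genes removed 0 more. Each cell went to the marker list with the highest mean z-score of log2(1 + molecules per 10000), if at least 3 of its markers were found, a scoring rule set after the data were seen; 268 cells fitted no list. Members and lists were chosen with earlier results of these data known. Counts summed per type and pool (16 sums of at least 20 cells) were tested with edgeR 4.0.16 in R 4.3.3 (filterByExpr, TMM, quasi-likelihood, pool as block, threshold 0.05), with DESeq2 1.42.0 as an alternative. Standard errors are those implied by the F statistic. Types were compared within the same 2 pools, captured together, so the pool is a block by design. Ratios between pools used a pseudocount of 0.5 molecules. Poisson and binomial intervals are exact, at 95%, from scipy 1.17.1. Both scripts for tests were tested on simulated data. Values in every type are printed for members that passed the test over all types; other members are given by their calls, counts and ranges.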

Additional observations from a re-analysis of the deposited data

How the results depend on the processing

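None of the 39 calls against macrophages, nor that of Scd2 in lipid-laden cells, turned direction in any setting run. With 1 pool left out (values with no test), 0 of these 40 turned, but 19 moved by more than the spread of the pools without the pool labelled Saa3-/- and 18 without the pool labelled wild-type. Between pools, leaving out the cell with the most molecules of the gene, from its own pool only, turned 4 small ratios. They went from 0.52 to -0.08 for Insig1 in fibroblasts and from 0.06 to -0.09 for Srebf1 in macrophages. In fibroblasts, Srebf1 went from -0.01 to 0.15 and Fads1 from -0.04 to 0.06. The 13 members that differed between types became 8 under a stricter cell filter and 6 with cells thinned to 2000 molecules; without the replicate block, that is without the pool as a block, they were 12. The 39 calls against macrophages became 21 under a stricter gate, 15 after thinning, 22 with sums of at least 40 cells and 23 without cells with cell cycle markers; thymocytes have no sum in 3 of these 4 settings and under the stricter cell filter, dendritic cells none in the last 2, and monocytes none with sums of at least 40 cells. By type, the stricter gate gave 1 call in monocytes (from 2) and 1 in dendritic cells (from 3), and thinning gave 0 in monocytes, 1 in dendritic cells, 4 in T cells (from 11), 2 in thymocytes (from 11) and 2 in smooth muscle cells (from 4). Without the block monocytes had 1. With each cell weighing the same T cells had 7, with DESeq2 tests T cells had 6 and smooth muscle cells 1, without TMM smooth muscle cells had 2, and without cycling cells lipid-laden macrophages had 2 (from 1). Between pools, the 0 members past the fold became 1 under the stricter cell filter and 1 under the stricter gate (both in macrophages), 6 with at least 20 molecules (2 in T cells, 1 in B cells, 1 in fibroblasts, 2 in smooth muscle cells) and 6 at a log2 ratio of 0.58 (4 in macrophages, 1 in B cells, 1 in smooth muscle cells). Apart from the types that dropped out and, after thinning, the members with too few molecules to be tested, the cause of these changes was not tested. Without TMM the split of all called genes, higher to lower, went from 1881 and 1877 to 2585 and 1515 in T cells, from 1769 and 1951 to 2695 and 1512 in thymocytes, and from 229 and 309 to 287 and 211 in monocytes. Depth limits the 9 members below the filter and every level resting on few molecules.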
